A study of Mus musculus with 7 samples.

Results

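Homeostatic astrocyte genes are the genes with which astrocytes, the star-shaped glia of the brain, handle water, glutamate, potassium and metals around neurons. The 36 genes described here were grouped by function, in a choice made with earlier results of these data known, and all 36 were found by symbol among the 55487 genes of the deposited count table and passed the filter on low counts. They were read in RNA from the microdissected suprachiasmatic nucleus (SCN), the hypothalamic nucleus that keeps daily time and receives direct input from the retina. The study asked what glaucoma does to this tissue.

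The advanced glaucoma group held 3 libraries (scn_glauc_152, scn_glauc_153 and scn_glauc_154) from mice of the DBA/2J strain, which carry a mutation in Gpnmb and develop high intraocular pressure and retinal damage. The control group held 4 libraries (scn_cont_565, scn_cont_567, scn_cont_568 and scn_cont_570) from DBA/2J-Gpnmb+SjJ mice, which lack the Gpnmb mutation. Both strains are otherwise on the DBA/2J background, which is known to carry a Tyrp1 mutation of its own, and all mice lived in a light and dark cycle. The mutation is carried by every cell of the animal, so the groups differ in Gpnmb as well as in the state of the eye, and these cannot be told apart here. The labels give WT as the genotype of both groups, and age, sex and hour of collection are not given in the sources used here. No label ties each library to 1 mouse, so the p-values measure the spread between these libraries, which may in part be technical. The nucleus was taken from thick cryostat sections, so neighbouring tissue may be included.

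An astrocyte wraps its endfeet around blood vessels, where the water channel aquaporin 4 is concentrated, and its finer processes around synapses, where it clears glutamate and turns it into glutamine. Gap junctions join astrocytes into a network that spreads potassium and metabolites. In the SCN, astrocytes run their own molecular clock and are known to influence the timing of the neurons through extracellular glutamate. Several of the genes are not made by astrocytes alone: Cst3 is also strong in microglia, Glul and S100b occur in oligodendrocytes, and Sparcl1 and Clu occur in some neurons.

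Total counts were 3585907 to 5118764 per advanced glaucoma library and 2174456 to 5285093 per control library (exact permutation p = 0.429, two-sided, n = 3 and n = 4; the smallest p this design allows is 0.0286). The 36 genes took 1.77% to 1.83% of the counts in advanced glaucoma and 1.91% to 1.96% in control, and each had at least 23 counts in every library. Gpnmb itself had 0 or 1 count per advanced glaucoma library and 0 to 2 per control library, too few to check the labels. Library scn_cont_565, the shallowest, stood apart from the others on the first principal component (29.1% of the variance). The labelled tissue showed its marker Vip, a peptide of SCN core neurons, at 2.69 CPM in advanced glaucoma, against 111.7 CPM in control. The 12 SCN neuron markers summed to 458 to 3536 CPM in advanced glaucoma and 1990 to 7377 CPM in control. Most of the mean sum was Avp, at 1786 of 2110 CPM in advanced glaucoma and 3205 of 4035 CPM in control. All 12 had negative log2 fold changes, and 10 of them passed the edgeR test at an adjusted p under 0.05. Over all tested genes, 0.378% were called lower at that threshold. For 11 of the 12, every advanced glaucoma library lay below every control library, against 3.91% of all tested genes.

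Few of the astrocyte genes passed the test. Aqp4, the water channel, and Id4, a transcriptional regulator of the astrocyte lineage, fell in advanced glaucoma, by 1.53-fold and 1.44-fold. None of the 36 passed the test as higher in advanced glaucoma. In edgeR's quasi-likelihood test with Benjamini-Hochberg adjustment over the 14020 genes tested, 2 of 36 genes were lower at an adjusted p under 0.05, where 0.378% of all tested genes were lower. None was higher, against 0.0927% of all tested genes, and in either direction 0.471% of all tested genes passed. In bulk tissue, fewer astrocytes, less of a transcript per astrocyte and a different share of neighbouring tissue cannot be told apart.

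Small differences in one direction were common. The log2 fold change, advanced glaucoma over control, was negative for 27 of the 36 genes, where it was negative for 51.5% of all tested genes. Its median was -0.10 over the 36 genes and -0.01 over all tested genes. An unadjusted p under 0.05 was reached by 9 genes, all lower in advanced glaucoma, against 4.15% of all tested genes that were lower by the same rule. At that threshold 0 of the 36 were higher, against 4.05% of all tested genes, of which 8.20% reached it in either direction. For 7 genes every advanced glaucoma library lay below every control library, a pattern that 3.91% of all tested genes showed. The reverse pattern was shown by 0 of the 36 and by 4.12% of all tested genes. These shares are given as a description, since the genes were not chosen blind to these data, and since they are expressed in the same cells and do not vary independently.

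**Figure D1:**
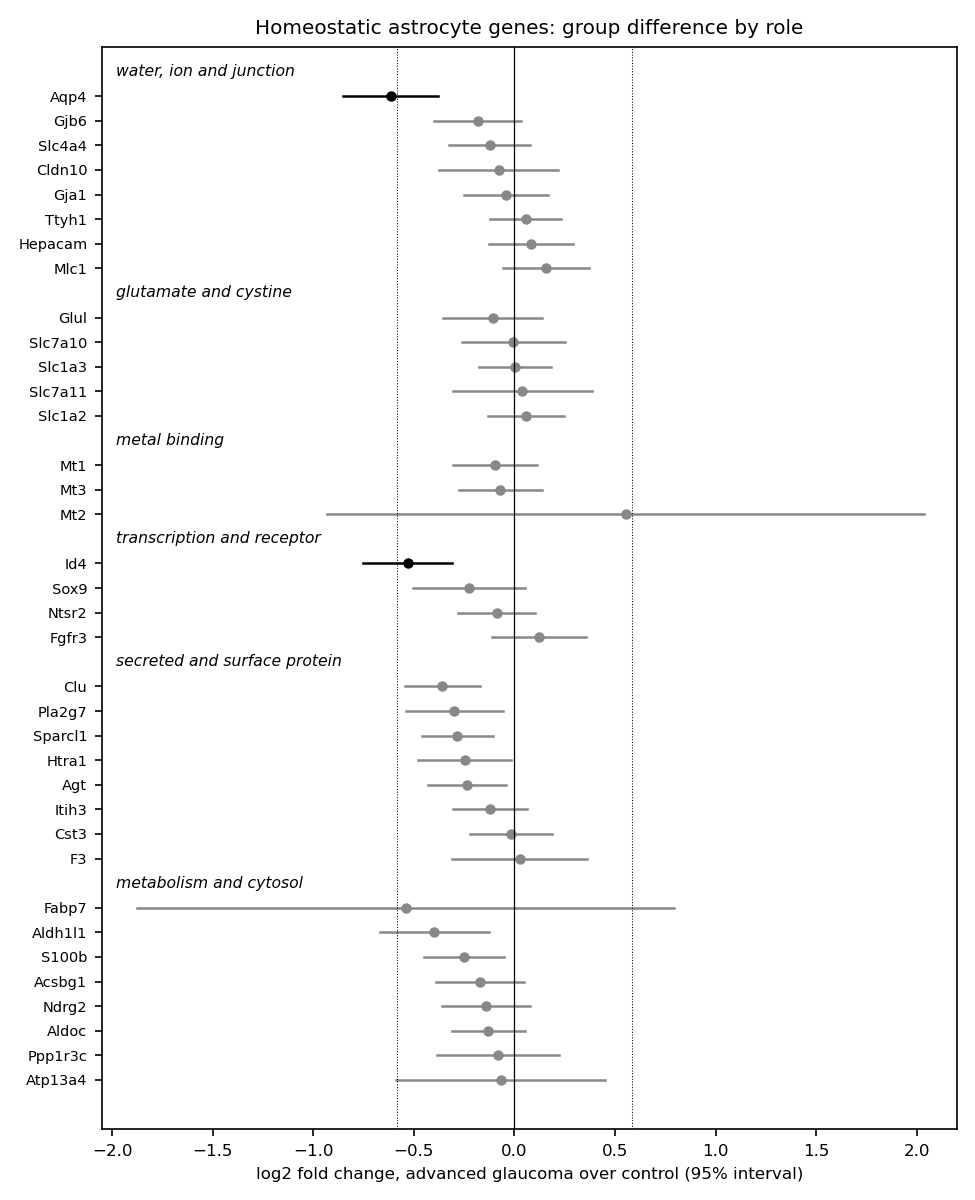
Log2 fold change (advanced glaucoma over control) of the 36 astrocyte genes, grouped by role, with 95% intervals from edgeR; black marks an adjusted p under 0.05 and dotted lines mark 1.5-fold either way. Aqp4 and Id4 stand out to the left, the glutamate genes sit near 0, and Mt2 and Fabp7 have wide intervals.

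Most of the genes could also be bounded closely. For 30 of the 36, the 95% interval of the log2 fold change lay inside 1.5-fold in both directions (0.58 on the log2 scale), which held for 52.5% of all tested genes. The 6 others were Aqp4, Id4, Aldh1l1, Atp13a4, Fabp7 and Mt2. Library-to-library spread was also modest: the median coefficient of variation over the 36 genes was 9.24% in advanced glaucoma and 9.43% in control, where over all tested genes it was 13.9% and 16.5%. Neither comparison with all tested genes was matched for expression level. All 36 genes stayed under a filter at a mean of 10 CPM, which kept 10169 genes against 14020.

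Genes of water, ion and junction handling were led by Aqp4. The gene (chromosome 18, 15389496 to 15410982, minus strand, mm10) had 63.2, 77.8 and 77.5 CPM in scn_glauc_152, scn_glauc_153 and scn_glauc_154, against 109.7, 121, 95.7 and 119 CPM in scn_cont_565, scn_cont_567, scn_cont_568 and scn_cont_570. CPM stands for counts scaled to a fixed library total, with a correction for library composition. All 3 advanced glaucoma libraries were below all 4 control libraries, and scn_glauc_152 was the lowest of the 7. The log2 fold change was -0.62 (SE 0.115, 95% interval -0.85 to -0.38, edgeR adjusted p = 0.00873). The call was lost when scn_glauc_152 was left out, where the difference was -0.52 on the log2 scale (adjusted p = 0.0796). It was also lost when the level of the myelin markers entered the fit as a covariate (-0.64, adjusted p = 0.250).

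The other 7 genes of that group did not pass, and their log2 fold changes lay between -0.18 and 0.16. Mlc1 and Hepacam encode membrane proteins that form a complex at astrocyte contacts and regulate cell volume. Mlc1 averaged 187 ± 23.7 CPM in advanced glaucoma and 168 ± 11.2 CPM in control (SD, n = 3 and n = 4, as for all means below). Its log2 fold change was 0.16 (95% interval -0.06 to 0.37). Hepacam averaged 121 ± 9.68 CPM in advanced glaucoma and 115 ± 5.36 CPM in control (interval -0.12 to 0.29). The gap junction gene Gja1, connexin 43, averaged 165 ± 8.28 CPM in advanced glaucoma and 170 ± 16.1 CPM in control (interval -0.25 to 0.17). Gjb6, connexin 30, averaged 88.2 ± 5.18 CPM in advanced glaucoma and 100.02 ± 6.02 CPM in control (log2 fold change -0.18, interval -0.40 to 0.03).

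Ttyh1, a membrane protein of the tweety family related to volume-regulated anion currents, had 472, 469 and 428 CPM in scn_glauc_152, scn_glauc_153 and scn_glauc_154. In control it had 439, 438, 439.9 and 438 CPM in scn_cont_565, scn_cont_567, scn_cont_568 and scn_cont_570, and the groups overlapped (log2 fold change 0.06, interval -0.12 to 0.23). Ttyh1 overlaps a tested antisense gene, and whether counting used strand is not given in the sources used here. The bicarbonate transporter gene Slc4a4 and the tight junction gene Cldn10 had log2 fold changes of -0.12 and -0.08. Cldn10 varied most in control, where it was at 92.8 CPM in scn_cont_565 and 52.2 CPM in scn_cont_570.

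The partners of aquaporin 4 at the endfoot gave no call. Of 13 further genes of the dystrophin complex and of potassium and chloride transport, 12 were tested and 0 passed in either direction, with a median log2 fold change of -0.04. At an unadjusted p under 0.05, 3 of the 12 were lower and 1 was higher, against 4.15% and 4.05% of all tested genes. The dystrophin gene Dmd averaged 48.9 ± 7.43 CPM in advanced glaucoma and 35.8 ± 8.54 CPM in control (log2 fold change 0.43, edgeR adjusted p = 0.423). Atp1b2, a sodium pump subunit of astrocytes, averaged 361 ± 31.6 CPM in advanced glaucoma and 433 ± 60.1 CPM in control (log2 fold change -0.27, adjusted p = 0.438). Kcnj10, the potassium channel Kir4.1, was chosen after its values were seen, and its log2 fold change was -0.08 (95% interval -0.27 to 0.12).

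**Figure D2:**
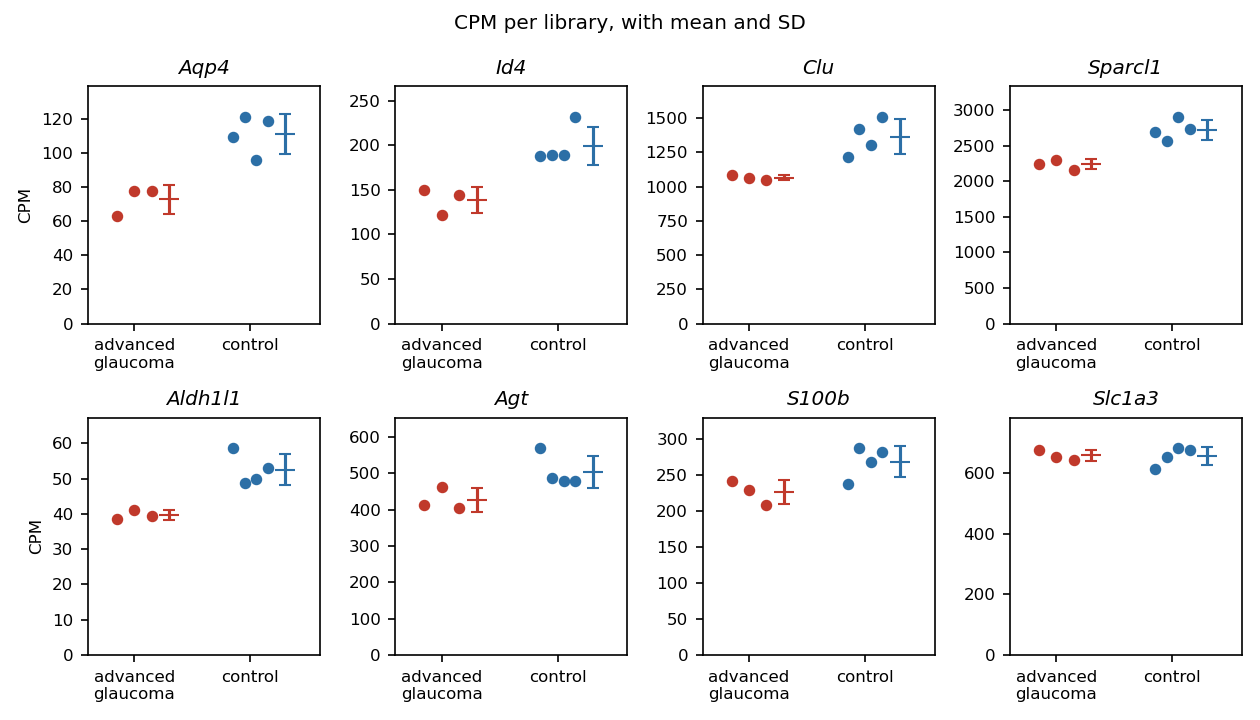
CPM of 8 astrocyte genes in each library, advanced glaucoma in red and control in blue, with the mean and SD beside the points. Aqp4, Id4, Clu, Sparcl1, Aldh1l1 and Agt do not overlap between the groups, S100b overlaps between 238 and 241 CPM, and Slc1a3 is level.

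Glutamate handling differed little between the groups. All 5 of these genes failed the test, their log2 fold changes lay between -0.11 and 0.06, and each interval stayed inside 1.5-fold. Slc1a2 encodes GLT-1, the main glutamate transporter of the forebrain, and had 778, 786 and 753 CPM in scn_glauc_152, scn_glauc_153 and scn_glauc_154, against 769, 829, 659 and 714 CPM in scn_cont_565, scn_cont_567, scn_cont_568 and scn_cont_570. The advanced glaucoma values lay within the range of control (log2 fold change 0.06, SE 0.0916, interval -0.13 to 0.25). Slc1a3, which encodes the transporter GLAST, averaged 658 ± 17.2 CPM in advanced glaucoma and 656 ± 30.1 CPM in control (log2 fold change 0.003, interval -0.17 to 0.18).

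Glul, glutamine synthetase, which converts the glutamate taken up, had 371, 315 and 255 CPM in scn_glauc_152, scn_glauc_153 and scn_glauc_154. In control it had 408, 313, 309 and 328 CPM in scn_cont_565, scn_cont_567, scn_cont_568 and scn_cont_570. The groups overlapped, with scn_glauc_154 lowest and scn_cont_565 highest (log2 fold change -0.11, interval -0.35 to 0.14). Slc7a10, a transporter of serine and other small neutral amino acids, averaged 60.2 ± 2.08 CPM in advanced glaucoma and 61.01 ± 7.49 CPM in control. Slc7a11, the cystine-glutamate exchanger xCT, averaged 31.8 ± 3.37 CPM in advanced glaucoma and 30.5 ± 5.52 CPM in control, with the lowest value, 22.3 CPM, in scn_cont_565.

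Of 15 further genes of the glutamate and glutamine cycle, 14 were tested and 0 passed, with a median log2 fold change of -0.07. The smallest p belonged to Slc6a9, a glycine transporter gene (log2 fold change -0.38, edgeR adjusted p = 0.337). Among the transporter genes above, Slc7a10 overlaps Lrp3 on the opposite strand and Slc1a3 overlaps Gm37310 on its own strand.

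Within each library, Aqp4 and Id4 were set against Slc1a3, which was level between the groups. The ratio of Aqp4 to Slc1a3 CPM was 0.0935, 0.119 and 0.121 in scn_glauc_152, scn_glauc_153 and scn_glauc_154, against 0.179, 0.185, 0.141 and 0.176 in scn_cont_565, scn_cont_567, scn_cont_568 and scn_cont_570. The ratio of Id4 to Slc1a3 was 0.221, 0.187 and 0.224 in the same 3 libraries, against 0.305, 0.289, 0.278 and 0.343 in the same 4. Neither ratio overlapped between the groups. Slc1a3 was chosen for this after its values were seen. The ratios therefore repeat the differences in Aqp4 and Id4, and no test is given.

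Metallothioneins are small cysteine-rich proteins that bind zinc and copper. Mt1 and Mt2 are induced by metals and stress through metal response elements in their promoters, which the factor MTF1 binds, and Mt3 is a brain form known to be far less inducible. The genes lie close together on chromosome 8. Because Mt2 varied between libraries far more than Mt1 or Mt3, the 3 promoter windows are shown side by side. Each runs from 250 bases before to 50 after the start given by RefSeq (GRCm38.p6, plus strand), with capitals at each match of TGCACNC or TGCGCNC on either strand. The letters are those of the reference strain and not of DBA/2J.
Mt1 (chr8:94178839-94179138): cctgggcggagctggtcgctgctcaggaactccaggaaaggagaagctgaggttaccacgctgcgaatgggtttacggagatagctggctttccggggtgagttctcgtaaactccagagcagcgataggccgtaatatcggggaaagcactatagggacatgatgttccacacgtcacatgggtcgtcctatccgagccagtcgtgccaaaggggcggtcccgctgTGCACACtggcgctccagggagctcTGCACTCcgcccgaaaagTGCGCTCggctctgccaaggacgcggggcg
Mt2 (chr8:94172368-94172667): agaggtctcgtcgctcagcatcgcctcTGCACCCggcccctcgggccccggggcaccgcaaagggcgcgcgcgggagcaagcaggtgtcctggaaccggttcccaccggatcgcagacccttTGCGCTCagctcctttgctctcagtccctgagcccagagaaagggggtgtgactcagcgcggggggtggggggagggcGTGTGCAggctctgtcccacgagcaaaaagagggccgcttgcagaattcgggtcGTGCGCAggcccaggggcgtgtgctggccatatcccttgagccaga
Mt3 (chr8:94152357-94152656): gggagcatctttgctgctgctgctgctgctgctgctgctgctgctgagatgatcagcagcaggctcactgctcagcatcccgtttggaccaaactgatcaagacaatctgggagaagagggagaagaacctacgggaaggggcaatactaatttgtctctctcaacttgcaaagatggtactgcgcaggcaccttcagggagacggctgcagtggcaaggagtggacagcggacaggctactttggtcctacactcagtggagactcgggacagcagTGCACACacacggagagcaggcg

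The Mt1 window held 3 matches, the Mt2 window 4 and the Mt3 window 1. Matches that begin after base 250 of a window lie past the start given by RefSeq. These began at bases 253 and 271 in Mt1, 255 in Mt2 and 278 in Mt3, where it was the only match. The GENCODE annotation starts Mt2 later, at 94172664, and the match at base 255 lies before that start. Of 32851 promoter windows of the same length, 25.7% held at least 1 match and 1.97% held 3 or more. A match is only a run of letters.

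Mt1 had 1194, 1064 and 1363 CPM in scn_glauc_152, scn_glauc_153 and scn_glauc_154, against 1528, 1220, 1223 and 1194 CPM in scn_cont_565, scn_cont_567, scn_cont_568 and scn_cont_570. The groups overlapped (log2 fold change -0.10, interval -0.31 to 0.11). Mt3 averaged 504 ± 65.9 CPM in advanced glaucoma and 529 ± 47.7 CPM in control (log2 fold change -0.07, interval -0.28 to 0.14).

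Mt2 behaved differently between libraries. It had 305, 307 and 550 CPM in scn_glauc_152, scn_glauc_153 and scn_glauc_154, against 395, 123, 130 and 409.5 CPM in scn_cont_565, scn_cont_567, scn_cont_568 and scn_cont_570. The control libraries thus split into a low pair, scn_cont_567 and scn_cont_568, and a high pair, and the advanced glaucoma libraries lay between the pairs (scn_glauc_152 and scn_glauc_153) or above both (scn_glauc_154). Its highest and lowest control libraries differed 3.33-fold, where those of Mt1 differed 1.28-fold and those of Mt3 1.24-fold. The ratio of Mt2 to Mt1 was 0.255, 0.289 and 0.403 in scn_glauc_152, scn_glauc_153 and scn_glauc_154, and 0.258, 0.101, 0.106 and 0.343 in scn_cont_565, scn_cont_567, scn_cont_568 and scn_cont_570. The group difference in Mt2 was not resolved (log2 fold change 0.55, 95% interval -0.93 to 2.04, edgeR adjusted p = 0.905). Without each library in turn it lay between 0.22, without scn_glauc_154, and 0.87, without scn_cont_570; it was 0.31 without scn_cont_567 and 0.32 without scn_cont_568. Mt2 was singled out after its values were seen. It overlaps a tested antisense gene, Gm45774, which averaged 2.01 CPM in advanced glaucoma and 2.51 CPM in control.

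**Figure D3:**
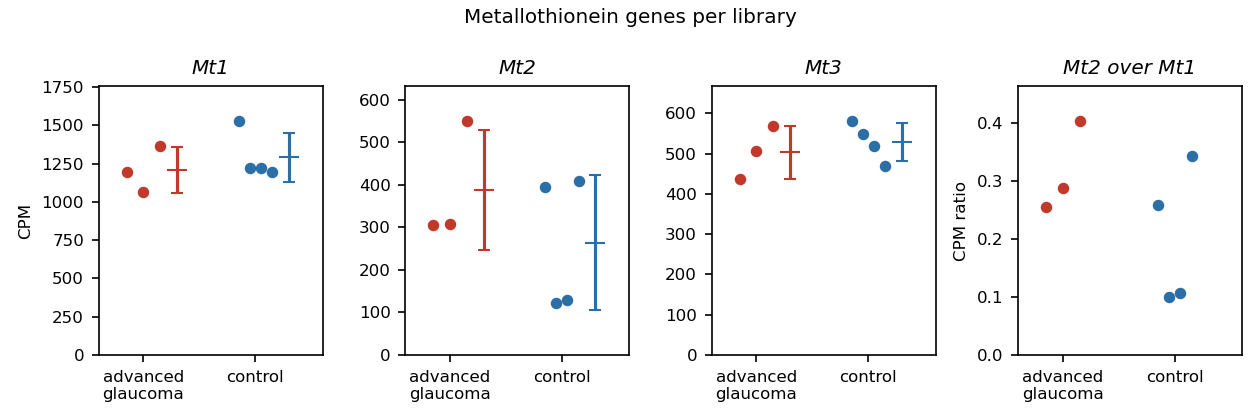
CPM of Mt1, Mt2 and Mt3 in each library with mean and SD, and the ratio of Mt2 to Mt1, with advanced glaucoma in red and control in blue. Mt2 splits the control libraries into a pair near 123 to 130 CPM and a pair near 395 to 409.5 CPM, while Mt1 and Mt3 do not.

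Other genes of zinc and copper handling did not differ by the test. All 18 listed were tested and 0 passed, with a median log2 fold change of -0.03. The smallest p belonged to the zinc importer gene Slc39a6 (log2 fold change -0.36, edgeR adjusted p = 0.285) and to Cp, ceruloplasmin (log2 fold change -0.43, adjusted p = 0.633).

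Among regulators and receptors, Id4 was the member called lower. ID proteins block basic helix-loop-helix factors, act downstream of BMP signalling and keep glial precursors from differentiating as neurons. Id4 (chromosome 13, 48261228 to 48266026, plus strand, mm10) had 150, 122 and 144 CPM in scn_glauc_152, scn_glauc_153 and scn_glauc_154, against 188, 189, 189 and 232 CPM in scn_cont_565, scn_cont_567, scn_cont_568 and scn_cont_570. Every advanced glaucoma library was below every control library, and scn_cont_570 was above the other 3 controls. The log2 fold change was -0.53 (SE 0.107, 95% interval -0.75 to -0.31, edgeR adjusted p = 0.0155). The call was lost without scn_cont_570 (-0.44, adjusted p = 0.0983), scn_glauc_153 (-0.44, adjusted p = 0.0930) or scn_glauc_154 (-0.55, adjusted p = 0.0843), and with the myelin markers as a covariate (-0.61, adjusted p = 0.250).

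The promoter window of Id4 from RefSeq (GRCm38.p6, plus strand) is shown because this gene and Id3 were both lower. Capitals mark GGCGCC, a palindrome that SMAD proteins of the BMP pathway are known to bind in the Id1 promoter. It matched once, and 11.9% of all promoter windows held it on either strand. The window ends before the start that the GENCODE annotation gives for Id4, 48261228. Matches in the Id3 promoter were not looked up, and whether SMAD proteins act on either gene here was not tested.
Id4 (chr13:48260866-48261165): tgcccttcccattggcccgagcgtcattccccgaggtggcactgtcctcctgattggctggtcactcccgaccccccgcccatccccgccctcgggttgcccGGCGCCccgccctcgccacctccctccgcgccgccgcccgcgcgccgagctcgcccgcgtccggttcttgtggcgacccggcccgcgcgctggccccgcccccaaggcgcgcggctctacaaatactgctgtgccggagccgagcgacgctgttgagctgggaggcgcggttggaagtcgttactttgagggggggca

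Sox9, the transcription factor that keeps astrocyte identity, averaged 111 ± 13.2 CPM in advanced glaucoma and 128 ± 25.8 CPM in control (log2 fold change -0.23, 95% interval -0.51 to 0.05). It was lowest of all in scn_cont_565, at 90.8 CPM. Ntsr2, a neurotensin receptor found on astrocytes, had 201, 233 and 214 CPM in scn_glauc_152, scn_glauc_153 and scn_glauc_154, against 234, 216, 233 and 233 CPM in scn_cont_565, scn_cont_567, scn_cont_568 and scn_cont_570. The groups overlapped (log2 fold change -0.09, interval -0.28 to 0.10). Fgfr3, a fibroblast growth factor receptor of astrocytes, averaged 104 ± 14.4 CPM in advanced glaucoma and 96.1 ± 8.88 CPM in control.

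Of 24 further genes of Notch, BMP and FGF signalling in glia, 1 was called lower and 0 were called higher. Over all tested genes these shares were 0.378% and 0.0927%. At an unadjusted p under 0.05, 4 of the 24 were lower and 1 was higher, against 4.15% and 4.05% of all tested genes. The gene called was Id3, another ID protein gene. It had 21.5, 16.8 and 21.6 CPM in scn_glauc_152, scn_glauc_153 and scn_glauc_154 against 47.2, 41.3, 32.2 and 36.2 CPM in scn_cont_565, scn_cont_567, scn_cont_568 and scn_cont_570. The groups did not overlap, and Id3 fell by 0.96 on the log2 scale (SE 0.175, edgeR adjusted p = 0.00673). Without each library in turn the call held, and with the myelin markers as a covariate it missed the threshold (-1.19, adjusted p = 0.0541). Bmpr1b, a BMP receptor gene, averaged 9.20 ± 2.90 CPM in advanced glaucoma and 16.9 ± 3.88 CPM in control (log2 fold change -0.90, adjusted p = 0.185). Id1, chosen after its values were seen, had a log2 fold change of -0.04 (interval -0.58 to 0.51).

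The 8 secreted and surface proteins gave no call. At an unadjusted p under 0.05, 5 of them were lower in advanced glaucoma, where 4.15% of all tested genes were lower. Clu encodes clusterin, a secreted chaperone and lipoprotein component. It had 1084, 1060.1 and 1047 CPM in scn_glauc_152, scn_glauc_153 and scn_glauc_154, against 1216, 1421, 1307 and 1508 CPM in scn_cont_565, scn_cont_567, scn_cont_568 and scn_cont_570. The groups did not overlap, and the advanced glaucoma libraries were close to one another. The log2 fold change was -0.36 (SE 0.0911, interval -0.55 to -0.17, edgeR adjusted p = 0.0917). Clu passed the threshold with no filter on low counts (adjusted p = 0.0306), with DESeq2 (0.0162), with limma-voom weights (0.0231) and without scn_cont_565 (0.00679). Its adjusted p lay between 0.00679 and 0.721 across 15 alternatives.

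Sparcl1 encodes hevin, a matrix protein with which astrocytes promote synapses. It had 2250.4, 2301 and 2163 CPM in scn_glauc_152, scn_glauc_153 and scn_glauc_154, against 2698, 2566, 2906 and 2730.1 CPM in scn_cont_565, scn_cont_567, scn_cont_568 and scn_cont_570. Again the groups did not overlap (log2 fold change -0.28, SE 0.0854, edgeR adjusted p = 0.191). Its call was gained with DESeq2 (0.0438) and with limma-voom weights (0.0498), and its adjusted p lay between 0.0438 and 0.931 across 15 alternatives.

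Agt, angiotensinogen, which brain astrocytes make, had 411, 463 and 405 CPM in scn_glauc_152, scn_glauc_153 and scn_glauc_154, against 567.9, 487, 478 and 479 CPM in scn_cont_565, scn_cont_567, scn_cont_568 and scn_cont_570. The groups did not overlap, and scn_cont_565 was well above the other controls (log2 fold change -0.24, edgeR adjusted p = 0.446). Htra1, a secreted serine protease, had 86.1, 119.995 and 102 CPM in scn_glauc_152, scn_glauc_153 and scn_glauc_154, against 126, 122, 113 and 128 CPM in scn_cont_565, scn_cont_567, scn_cont_568 and scn_cont_570. Here scn_glauc_153 lay inside the control range (log2 fold change -0.25, adjusted p = 0.568), and Htra1 overlaps the tested gene Fgfr2 on the opposite strand. Pla2g7, a secreted phospholipase that inactivates platelet-activating factor, had 114, 143 and 118 CPM in scn_glauc_152, scn_glauc_153 and scn_glauc_154, against 172, 122, 163 and 159.7 CPM in scn_cont_565, scn_cont_567, scn_cont_568 and scn_cont_570. Its groups overlapped through scn_glauc_153 and scn_cont_567 (log2 fold change -0.30, adjusted p = 0.443).

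The remaining 3 of that group were closer to 0. Cst3, the protease inhibitor cystatin C, had 6009, 5271 and 5659 CPM in scn_glauc_152, scn_glauc_153 and scn_glauc_154, against 6429, 6128, 5568 and 4747 CPM in scn_cont_565, scn_cont_567, scn_cont_568 and scn_cont_570. The groups overlapped fully (log2 fold change -0.02, interval -0.22 to 0.18). Itih3, a hyaluronan-linked matrix protein gene, averaged 287 ± 8.50 CPM in advanced glaucoma and 311 ± 17.7 CPM in control; its groups were apart by less than 1 CPM, at 292.6 and 292.9 CPM. F3, tissue factor, averaged 30.8 ± 4.89 CPM in advanced glaucoma and 30.1 ± 2.92 CPM in control.

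Metabolic and cytosolic genes all had negative log2 fold changes, 8 of 8, between -0.54 and -0.07, where 51.5% of all tested genes were negative. None of the 8 passed the test. Aldh1l1, a folate enzyme widely used to mark astrocytes, had 38.6, 41.1 and 39.3 CPM in scn_glauc_152, scn_glauc_153 and scn_glauc_154, against 58.6, 48.7, 49.8 and 53.1 CPM in scn_cont_565, scn_cont_567, scn_cont_568 and scn_cont_570. The groups did not overlap (log2 fold change -0.40, SE 0.132, interval -0.67 to -0.13, edgeR adjusted p = 0.285). Over 15 alternatives Aldh1l1 gained no call, with adjusted p of 0.241 to 0.924.

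S100b, a calcium-binding protein gene of astrocytes, had 241, 229 and 208 CPM in scn_glauc_152, scn_glauc_153 and scn_glauc_154, against 238, 286, 268 and 281 CPM in scn_cont_565, scn_cont_567, scn_cont_568 and scn_cont_570. The groups overlapped through scn_glauc_152 and scn_cont_565 (log2 fold change -0.25, edgeR adjusted p = 0.433), and S100b overlaps Dip2a on the opposite strand. Aldoc, the brain aldolase of glycolysis, had 1133, 1180.1 and 1162 CPM in scn_glauc_152, scn_glauc_153 and scn_glauc_154, against 1139.7, 1345, 1323 and 1259.6 CPM in scn_cont_565, scn_cont_567, scn_cont_568 and scn_cont_570. It overlapped only through scn_cont_565 (log2 fold change -0.13, interval -0.31 to 0.05).

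Fabp7, a fatty acid binding protein of astrocytes and radial glia with a daily rhythm in mouse brain, was singled out after its values were seen. It had 16.2, 47.4 and 50.96 CPM in scn_glauc_152, scn_glauc_153 and scn_glauc_154, against 91.8, 37.3, 55.8 and 41.4 CPM in scn_cont_565, scn_cont_567, scn_cont_568 and scn_cont_570. Its lowest library, scn_glauc_152, was apart from the other 2 of its group, and the group difference was not resolved (log2 fold change -0.54, interval -1.87 to 0.79). It was -0.16 without scn_glauc_152 and -0.25 without scn_cont_565, and lay between -0.80 and -0.54 without each of the others. The log2 fold changes of Acsbg1, an acyl-CoA synthetase, Ndrg2, a cytosolic protein of mature astrocytes, Ppp1r3c, which targets phosphatase to glycogen, and Atp13a4, a P5-type ATPase, were -0.17, -0.14, -0.08 and -0.07.

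Of 17 further genes of glycogen, lactate and lipid supply, 16 were tested and 0 passed, with a median log2 fold change of -0.09. Ldha, a lactate dehydrogenase subunit, averaged 376 ± 18.8 CPM in advanced glaucoma and 305 ± 23.1 CPM in control (log2 fold change 0.31, edgeR adjusted p = 0.189). Dbi, the acyl-CoA binding protein, averaged 898 ± 95.8 CPM in advanced glaucoma and 1074 ± 43.9 CPM in control (log2 fold change -0.26, adjusted p = 0.343).

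**Figure D4:**
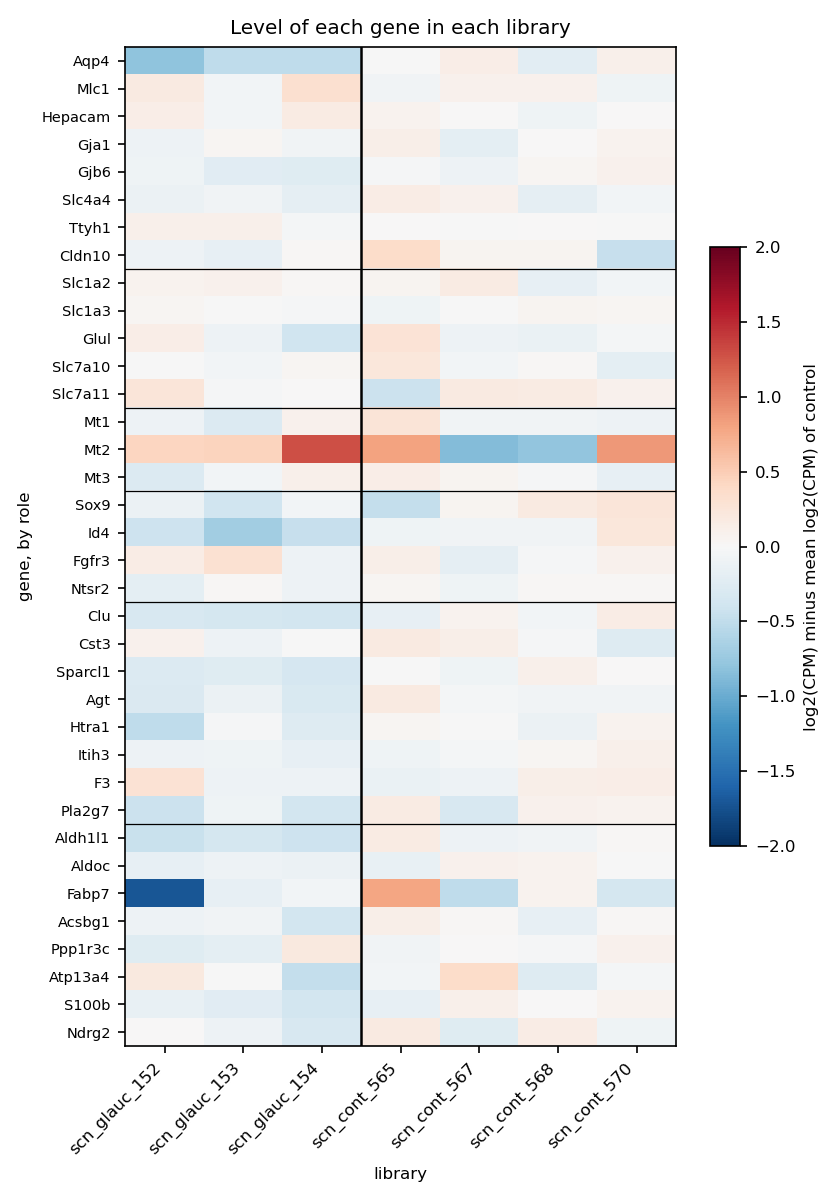
Log2 CPM of each of the 36 genes in each library minus its mean in the control libraries, with advanced glaucoma left of the line and control right of it, and horizontal lines between roles. Aqp4 and Id4 are low in all 3 advanced glaucoma libraries, Mt2 is low in scn_cont_567 and scn_cont_568, and Fabp7 is lowest in scn_glauc_152.

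Summed over the 36 genes, the level was 18443, 17708 and 18178 CPM in scn_glauc_152, scn_glauc_153 and scn_glauc_154, against 20567, 19539, 19224 and 18624 CPM in scn_cont_565, scn_cont_567, scn_cont_568 and scn_cont_570. The sums did not overlap, though scn_glauc_152 and scn_cont_570 were close, and the ratio of the means was 0.929. Without Cst3, the gene with the highest level, the sums were 12435 to 12519 CPM in advanced glaucoma and 13411 to 14138 CPM in control. The ratio of the means was then 0.905. Genes with high levels weigh most in these sums. Sparcl1 averaged 2238 CPM in advanced glaucoma and 2725 CPM in control, and Clu averaged 1064 and 1363 CPM. The difference was thus not shared evenly, and 9 of the 36 genes had positive log2 fold changes. By role the ratio of summed levels was 0.973 for water, ion and junction genes, 1.003 for glutamate and cystine genes, 1.01 for metallothioneins, 0.872 for regulators and receptors, 0.908 for secreted and surface proteins and 0.895 for metabolic genes.

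Markers of other cells moved with the groups to differing degrees. The 14 myelin and oligodendrocyte markers summed to 3624, 5124 and 2526 CPM in scn_glauc_152, scn_glauc_153 and scn_glauc_154, against 4515 to 5808 CPM in control; all 14 log2 fold changes were negative, with a median of -0.49, and 1, Apod, passed. The 12 general neuron markers summed to 4155 to 4863 CPM in advanced glaucoma and 4564 to 4972 CPM in control, and 0 passed. Of these 12, 4 had negative and 8 had positive log2 fold changes. Gad1, Gad2 and Slc32a1 averaged 211, 276 and 92.7 CPM in advanced glaucoma, against 323, 468 and 168 CPM in control. Slc17a6 averaged 167 CPM in advanced glaucoma and 110 CPM in control. These genes were named after their values were seen. The 11 microglia markers summed to 482 to 527 CPM in advanced glaucoma and 486 to 621 CPM in control, and 0 passed. The 12 vessel markers summed to 1073 to 1200.3 CPM in advanced glaucoma and 991 to 1487 CPM in control. Of them 1, Vtn, was called lower. Over all tested genes, 0.378% were called lower at the same threshold. In none of these lists was a marker at 0 in any library. Of 4 further cell types, none gave a call. Markers of precursors of oligodendrocytes summed to 192 to 235 CPM in advanced glaucoma and 227 to 260.5 CPM in control, and those of ependyma and tanycytes to 226 to 423 CPM in advanced glaucoma and 253 to 312 CPM in control. Within the ependyma and tanycyte list, 4 log2 fold changes were negative and 6 positive. Gpr50 averaged 68.6 CPM in advanced glaucoma and 21.3 CPM in control. Rax averaged 15.7 CPM in advanced glaucoma and 6.21 CPM in control. Both were named after their values were seen. Choroid plexus markers summed to 151 to 164 CPM in advanced glaucoma and 139 to 189 CPM in control, and meningeal markers to 57.1 to 127 CPM in advanced glaucoma and 72.2 to 216 CPM in control. Kcne2 of the choroid plexus was at 0 in all 7 libraries. The part of these differences in Aqp4 and Id4 was not tested beyond the fit with the myelin covariate.

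Other astrocyte markers gave 1 call. Of 26 further astrocyte markers, 25 were tested, 1 was called lower and 0 were called higher, with a median log2 fold change of -0.18. Over all tested genes, 0.378% were called lower and 0.0927% were called higher. At an unadjusted p under 0.05, 9 of the 25 were lower and 0 higher, against 4.15% and 4.05% of all tested genes. Negative log2 fold changes were shown by 20 of the 25, against 51.5% of all tested genes. Over all further astrocyte lists, 108 genes were tested, of which 21 were lower and 4 higher at the unadjusted threshold. The gene called was Lgi4, a secreted glial protein. It had 14.4, 18.96 and 12.2 CPM in scn_glauc_152, scn_glauc_153 and scn_glauc_154, against 33.8, 24.5, 29.5 and 34.8 CPM in scn_cont_565, scn_cont_567, scn_cont_568 and scn_cont_570. The groups did not overlap, and Lgi4 fell by 1.003 on the log2 scale (edgeR adjusted p = 0.0113). That call was lost without scn_cont_570 (-0.92, adjusted p = 0.0703), scn_glauc_152 (-0.96, adjusted p = 0.0617) or scn_glauc_154 (-0.88, adjusted p = 0.139). With the myelin covariate the difference was smaller as well (-0.61, adjusted p = 0.83). Mfge8, a bridging protein for phagocytosis, averaged 128 ± 17.8 CPM in advanced glaucoma and 186 ± 35.2 CPM in control (log2 fold change -0.53, adjusted p = 0.0648).

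Gfap, the intermediate filament of fibrous and reactive astrocytes, was chosen after its values were seen. It had 91.8, 117 and 90.8 CPM in scn_glauc_152, scn_glauc_153 and scn_glauc_154, against 137, 358, 399.5 and 491 CPM in scn_cont_565, scn_cont_567, scn_cont_568 and scn_cont_570. The groups did not overlap, but scn_cont_565 lay near the advanced glaucoma libraries and far from the other controls. With all libraries the log2 fold change was -1.81 (edgeR adjusted p = 0.366), and without scn_cont_565 it was -2.06 (adjusted p = 8.45e-09). It passed in 2 of 15 alternatives, this one and DESeq2 (adjusted p = 0.0136), and its adjusted p reached 0.924 with the myelin covariate. The 19 reactive astrocyte markers, of which Gfap is one, summed to 602 to 769 CPM in advanced glaucoma and 586 to 1198 CPM in control, and 2 of them were at 0 in some libraries, Cxcl10 and Ptx3. Of the 14 that could be tested, 1 was called lower, Aspg (log2 fold change -1.73, edgeR adjusted p = 0.0461), and 0 were called higher. Their median log2 fold change was -0.42. Over all tested genes, 0.378% were called lower.

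**Figure D5:**
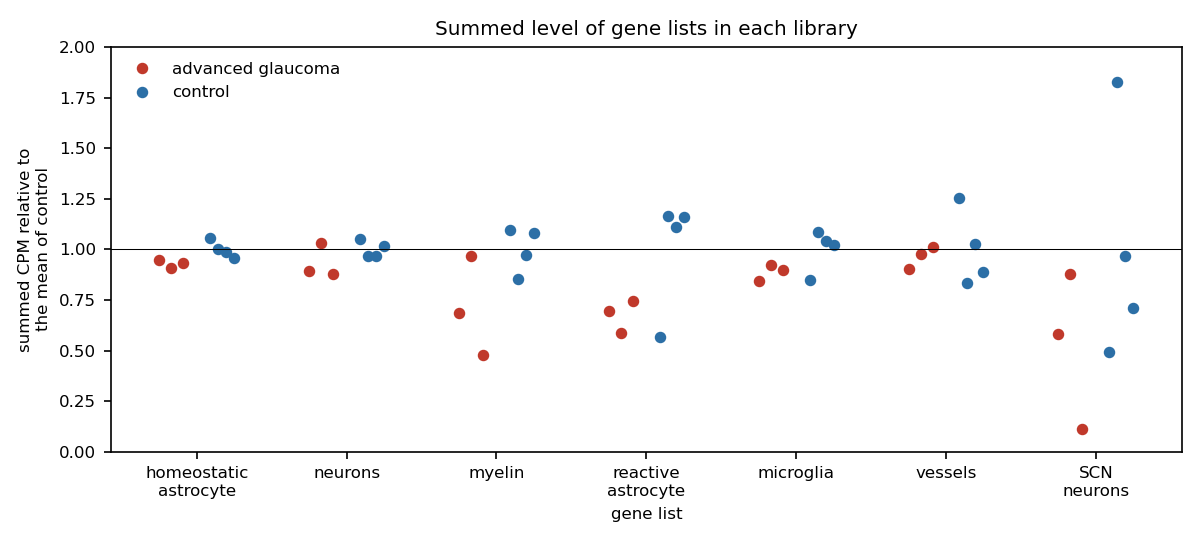
Summed CPM of gene lists in each library relative to the mean of the control libraries, with advanced glaucoma in red left of control in blue. The 36 homeostatic astrocyte genes stay within a narrow band just below and around 1, while the myelin, reactive astrocyte and SCN neuron lists spread widely.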

How the data were processed

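The authors deposited raw counts per Ensembl gene, from BRB-seq (3′ barcoded) libraries made with the MERCURIUS kit, per the labels' protocols. STAR, HTSeq, featureCounts and DESeq2 and the build mm10 are named in the submitters' processing notes; their roles and versions, the annotation release, strand setting and handling of molecular identifiers and of reads with several matches are not given in the sources used here. Whether the values count reads or molecules is therefore unknown. Symbols were found for 55141 of 55487 identifiers, and coordinates come from GENCODE M21 (GRCm38). 

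The deposited counts were fitted in R 4.3.3 with edgeR 4.0.16: filterByExpr by group (14020 genes kept), TMM scaling, robust quasi-likelihood test, group as the only term, Benjamini-Hochberg over all genes, threshold 0.05. SE was the size of each log2 fold change divided by √F. Libraries were grouped by title. The script was tested on simulated data. Alternatives used DESeq2 1.42.0, limma 3.58.1, other scalings and filters, a myelin covariate and leaving out each library.

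The 36 genes, their roles and all lists were chosen with earlier results of these data known. Values in every library were given for the 16 members taken by a rule: adjusted or unadjusted p under 0.05, or the smallest p or highest mean CPM of a role. Other list genes were named if they passed or had one of the 2 smallest p. Some genes that this rule takes are not reported here.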

Additional observations from a re-analysis of the deposited data

Results flagged for a closer look

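In 6 of 55 control groups of 4 values, 1 library lay far from the other 3, with a gap over the range above Dixon's 95% critical value; chance flags about 1 in 20 such groups. Library scn_cont_565 gave 4 of the 6: Mt1 at 1528 CPM, where the others had 1194 to 1223 CPM, Agt at 567.9 CPM against 478 to 487 CPM, Slc7a11 at 22.3 CPM against 32.1 to 33.98 CPM, and the summed reactive astrocyte markers at 586 CPM against 1143 to 1198 CPM. Id4 stood out in scn_cont_570 at 232 CPM, where the others had 188 to 189 CPM, and Ntsr2 in scn_cont_567 at 216 CPM, where the others had 233 to 234 CPM.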

How the results depend on the processing

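No member was called higher in advanced glaucoma, at an adjusted p under 0.05, under any of the 15 alternatives. The 2 lower members became 4 with DESeq2 and 4 with limma-voom weights (Clu and Sparcl1 added), 0 when myelin marker level was a covariate, and 1 to 3 without each library in turn. All genes called were 202 with no filter and 16 with the covariate, against 66, of which 108 and 15 were lower against 53; without each library they were 28 to 93, of which 24 to 69 were lower. Genes called in the further astrocyte lists were 4 with no filter, 5 with DESeq2 and 0 with the covariate, against 2, and 1 to 3 without each library. The cause of these moves was not tested, though the covariate takes a degree of freedom from 7 libraries. The median log2 fold change of the members stayed between -0.13 and -0.08 and the ratio of summed levels between 0.917 and 0.949. The sign changed under at least 1 alternative for 14 of the 36 genes, 0 of them called and each within 0.16 of 0 on the log2 scale with all libraries. Among the 16 genes given in full these were Glul and Cst3. The log2 fold change of Glul was 0.051 with the covariate and ran between -0.25 and 0.022 without each library in turn, above 0 without scn_glauc_154. That of Cst3 was 0.013 with limma-voom weights and ran between -0.096 and 0.046 without each library in turn, above 0 without scn_cont_565, scn_cont_567 or scn_glauc_153. No paired analysis was possible because the groups share no replicate number. Counting error and spread between libraries were not separated here, and Atp13a4, the member with the fewest counts, rested on 23 to 69 counts.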

Other observations

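Control libraries shared the extremes of the 36 genes unequally. Library scn_cont_565 was the highest control library for 17 genes and the lowest for 10, and scn_cont_568 was the highest for 3 and the lowest for 9. Within advanced glaucoma, scn_glauc_154 was the lowest library for 16 genes, scn_glauc_152 for 11 and scn_glauc_153 for 9. Mitochondrial transcripts took 19.5% of counts in scn_cont_565 and 12.6% to 16.5% in the other 6 libraries.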
